A study of Mus musculus with 4 samples.

Results

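The levels of 10 genes of the WNT pathway were compared between libraries of mouse embryonic diapause, its end and early implantation. These were the ligand genes Wnt6 and Wnt7b, the agonist gene Rspo3 and the β-catenin gene Ctnnb1. The others were the transcription factor genes Lef1, Tcf7, Tcf7l1 and Tcf7l2, and the target and receptor genes Axin2 and Lgr5. All 10 were chosen by name, with earlier results of these data known. They are 10 of 25437 genes in the files, and all 10 were found there. Single-cell RNA libraries came from whole wildtype embryos of the strain B6C3F1/J, with 1 library for each of 4 stage labels. The EDG7.5 and EDG9.5 libraries and the Reactivated library, labelled EDG9.5 with 30 h of E2 added, each held roughly 200 to 250 blastocysts flushed from the uterus, and the E5.5 library held 50 embryos taken from implantation sites with forceps. The embryos of a library were pooled and dissociated with TrypLE, and the cells were captured in microwells on the BD Rhapsody Express system. E4.5 embryos, which the series text also names, were not analysed here. The E5.5 label gives no EDG day and no E2, so its embryos are not shown to have passed through diapause or reactivation. Stage order below is only the order EDG7.5, EDG9.5, Reactivated, E5.5, and later libraries are Reactivated and E5.5.

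WNT proteins are lipid-modified secreted ligands that bind Frizzled receptors and LRP co-receptors. Binding stops the destruction complex of axin, APC and the kinases GSK3 and CK1 from degrading β-catenin, which then enters the nucleus and joins the DNA-binding proteins of the TCF/LEF family. R-spondins raise the response by keeping Frizzled receptors at the cell surface, and LGR proteins are their receptors. TCF7L1 mainly represses its targets in mouse pluripotent cells, whereas TCF7 and LEF1 are mostly described as activators, and TCF7L2 can do both. In the mouse, WNT activity is known for holding embryonic stem cells in the naive state and for patterning the epiblast around gastrulation.

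TCF/LEF proteins bind a short element that was searched here as CTTTGAA or CTTTGAT or CTTTGTA or CTTTGTT on both strands, in the 250 bases before each RefSeq start on GRCm38.p6. Of the 10 genes, 7 have a start in that RefSeq table, with 13 windows among them, and 2 of the 13 windows held the element, while among all 32851 windows the share was 14.8%. The 13 windows overlap in part where a gene has close starts, and 250 bases leave out distal elements. Windows are shown for Lef1, which had the largest increase of the 10 genes, at its outer and an inner start, and for Axin2, a widely used WNT target, 5′ to 3′ with a match in capitals. The match in the inner Lef1 window is TACAAAG, which is CTTTGTA on the other strand, and it begins 147 bases before the start. The other match was CTTTGTT in a window of an inner Tcf7l2 start, 14 bases before it. The outer Lef1 window and the Axin2 window held none of the 4 spellings. The Axin2 window also belongs to an inner start, as the gene begins at 108917828, and the bases before that end were not searched. Likewise, the windows of Wnt6 and Tcf7 lie inside their genes.
Lef1, chr3:131110047-131110296 (+ strand): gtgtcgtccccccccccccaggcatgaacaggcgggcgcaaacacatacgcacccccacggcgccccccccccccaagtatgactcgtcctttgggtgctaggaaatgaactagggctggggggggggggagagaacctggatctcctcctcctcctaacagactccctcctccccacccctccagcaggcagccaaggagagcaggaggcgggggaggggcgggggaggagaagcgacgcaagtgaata
Lef1, chr3:131156044-131156293 (+ strand): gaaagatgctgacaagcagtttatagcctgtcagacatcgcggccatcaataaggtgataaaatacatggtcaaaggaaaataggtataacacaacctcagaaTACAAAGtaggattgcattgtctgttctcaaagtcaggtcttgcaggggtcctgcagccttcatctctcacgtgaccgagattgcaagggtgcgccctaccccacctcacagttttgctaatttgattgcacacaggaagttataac
Axin2, chr11:108920099-108920348 (+ strand): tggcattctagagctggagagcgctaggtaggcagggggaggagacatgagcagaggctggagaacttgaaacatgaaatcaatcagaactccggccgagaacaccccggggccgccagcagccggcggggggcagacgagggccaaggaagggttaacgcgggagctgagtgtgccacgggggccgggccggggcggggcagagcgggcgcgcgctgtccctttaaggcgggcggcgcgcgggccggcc

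On GRCm38, RefSeq places the ligand genes Wnt6 at chr1:74754342-74785322 (+), Wnt7b at chr15:85535437-85581821 (-) and Rspo3 at chr10:29453106-29535867 (-), and Ctnnb1 at chr9:120933400-120960507 (+). The factor genes are Lef1 at chr3:131110297-131224357 (+), Tcf7 at chr11:52246527-52283383 (-), Tcf7l1 at chr6:72626371-72789045 (-) and Tcf7l2 at chr19:55741797-55933659 (+). Axin2 lies at chr11:108917828-108950783 (+) and Lgr5 at chr10:115450314-115587780 (-). Strands and the exons compared next are those of the GENCODE annotation. Exons of Ctnnb1 share 759 bases with the opposite-strand gene Ulk4, which had 154 UMIs over all lineages and libraries beside 23567 of Ctnnb1. Wnt7b overlaps AU022754 on the opposite strand, with 18 UMIs beside 3061, and Tcf7l1 overlaps Gm15401, with 14 beside 25411. Antisense genes that are not in the files overlap exons of Lef1 (Gm43352, 1208 bases), Rspo3 (Gm48159, 404 bases) and Axin2 (Gm11670, 209 bases), so the reads they might add cannot be sized. The strand setting of the counting is not given in the sources used here, so reads of such pairs cannot be told apart.

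The libraries held between 9270833 and 87507141 molecule counts (UMIs), with 677 to 9560 barcodes and a median of 3724.5 to 13154.0 UMIs per barcode; Reactivated was the deepest per cell and EDG9.5 the shallowest. Cells were sorted into epiblast, endoderm (primitive endoderm and its descendants) and trophoblast by marker genes. For EDG7.5 the sums covered 488 epiblast, 580 endoderm and 590 trophoblast cells, for EDG9.5 the numbers were 585, 867 and 950, for Reactivated 205, 303 and 163, and for E5.5 2641, 2994 and 3628. All 12 epiblast and all 14 endoderm markers reached 20 CPM in their own lineage in every library, and 10 to 14 of 15 trophoblast markers did. The same lists named the clusters, so these levels follow in part from the naming and do not test it. Lists for uterine epithelium, decidual stroma, immune cells, erythroid cells and endothelium each summed to at most 88.1 CPM, the highest being decidual stroma in Reactivated endoderm, where 1 of its 9 genes reached 20 CPM. A few lineage or immune genes were kept out of the lists with earlier results known, so these sums are no independent check. The immune list lacks the immune genes that led a cluster of EDG7.5 trophoblast, given below. Marker sums of 1 embryonic lineage within another also differed by library and are given in stage order. In epiblast the endoderm list summed to 207, 169.8, 124 and 208 CPM and the trophoblast list to 557, 568, 137 and 144 CPM. In endoderm the epiblast list summed to 815, 736, 1261 and 1159 CPM and the trophoblast list to 193, 208, 272 and 668 CPM. In trophoblast the epiblast list summed to 338, 345, 696 and 1095 CPM and the endoderm list to 433, 368, 48.7 and 70.4 CPM. The part of these shifts, and of depth per cell, in the results was not tested. Between 12 and 58 barcodes of a library also occurred in another, and the counts of genes below were computed again without those cells.

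Levels are given as CPM: all UMIs of a lineage were added up within its library and the gene's count was scaled to a total of 1000000 UMIs. CPM is a share of RNA, so a difference in it cannot be told apart from a change in the rest of the RNA, and levels are not compared between genes. Brackets hold 95% intervals that cover counting error only (exact Poisson for CPM, exact conditional binomial for ratios, Clopper-Pearson for shares of cells). With 1 library per stage, stage, library and, for E5.5, the way of collection cannot be told apart, no test was made, and no difference has a replicate check. A gene was called 2-fold higher or lower by log2 of the ratio after adding 10 CPM to both sides, which understates the change of low genes. Shares of cells with a UMI are given after thinning each cell to 2000 UMIs, which kept 486 epiblast, 570 endoderm and 562 trophoblast cells of EDG7.5, 548, 779 and 851 of EDG9.5, and all but 1 cell of the 2 later libraries.

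Across the 10 genes in 3 lineages, 30 values in all, none was called 2-fold within diapause with 10 CPM added. Reactivated and E5.5 each held several 2-fold calls against the library listed before it. By plain CPM, Axin2 and Lgr5 in trophoblast were lower in EDG9.5 than in EDG7.5, at 15.1 against 33.01 and 8.23 against 17.3. Their intervals did not overlap. Tcf7l2 in endoderm went the other way, at 116 against 70.9. EDG9.5 over EDG7.5 had its values between log2 ratios of -0.78 and 0.64; over all genes with at least 10 UMIs in both sums together, pooled over the lineages, 0.107% were 2-fold higher and 0.0602% lower. In Reactivated over EDG9.5, 2 of 30 values were 2-fold higher (Lef1 in epiblast and Tcf7l1 in trophoblast) and 6 lower (Wnt6 and Axin2 in trophoblast, Rspo3, Tcf7 and Axin2 in endoderm, and Tcf7l2 in epiblast), beside 7.53% higher and 12.8% lower of all genes; of the 24 values with at least 10 UMIs these were 8.33% and 25%, the higher share being near that of all genes. In E5.5 over Reactivated, 8 of 30 were 2-fold higher (Ctnnb1 in all 3 lineages, Tcf7 and Tcf7l1 in trophoblast, and Rspo3, Tcf7 and Tcf7l2 in endoderm) and 1 lower (Lef1 in epiblast), beside 3.69% higher and 3.31% lower of all genes; of the 27 values with at least 10 UMIs these were 29.6% and 3.7%. Of the 30 values, 22, 24 and 27 had at least 10 UMIs in the 3 comparisons, and no call rested on fewer. With 10 CPM added, a gene under 10 CPM in both sums cannot be called. All genes were not matched to the 10 genes by level. The part of level in a gap between the shares, here and below, was not tested. Neighbouring comparisons share a library, so a value that is high or low in Reactivated enters both with opposite sign. Because the 10 genes were chosen with earlier results of these data known, their shares beside all genes are descriptions only.

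**Figure D1:**
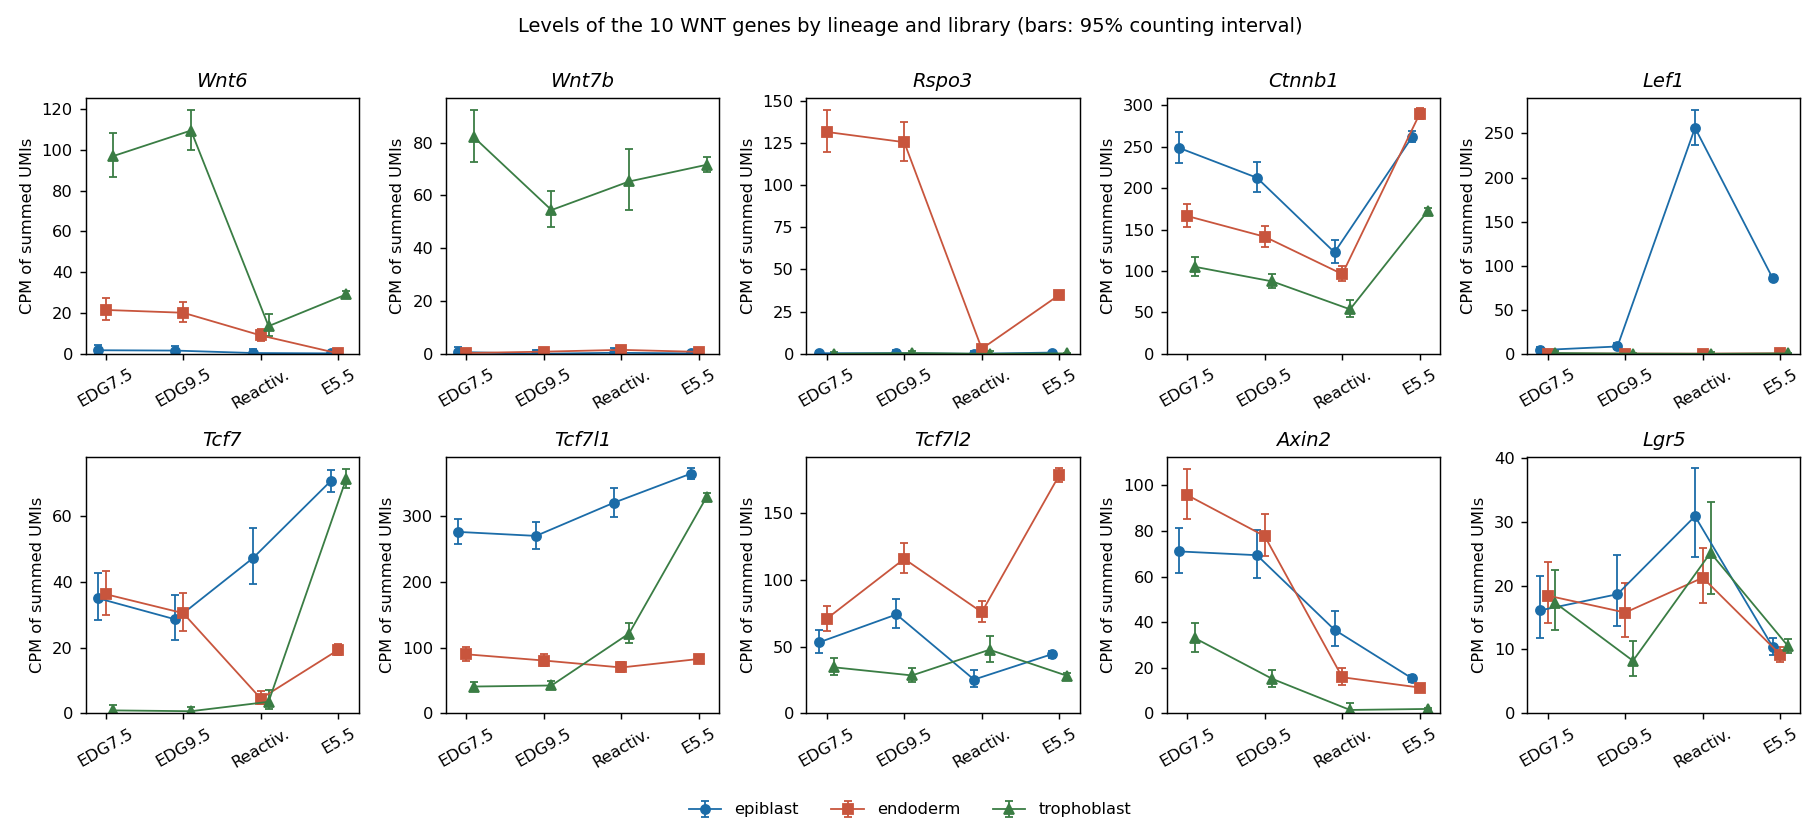
CPM of each of the 10 genes (vertical axes, linear, from 0) in the 4 libraries, by lineage; points are sums over all cells of a lineage, bars are 95% counting intervals and lines only join libraries. Lef1 stands at 256 CPM in Reactivated epiblast, and Rspo3 at 3.0 CPM in Reactivated endoderm.

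Among the ligands, Wnt6 was a gene of trophoblast and, less, of endoderm. WNT6 is a canonical ligand made by several epithelia. In trophoblast it had 96.9 (86.6 to 108) CPM for EDG7.5, 109 (99.9 to 119.5) for EDG9.5, 13.6 (8.94 to 19.7) for Reactivated and 29.1 (27.3 to 30.97) for E5.5, from 320, 492, 27 and 965 UMIs. Both diapause libraries were high, Reactivated was lowest at 8.07 (5.48 to 12.4) times below EDG9.5, and E5.5 was 2.14 (1.46 to 3.27) times Reactivated, with a log2 ratio of 0.73 that missed the 2-fold call. Endoderm had 21.5 CPM for EDG7.5, 20.1 for EDG9.5, 9.0 for Reactivated and 0.184 for E5.5, the last from 5 UMIs. E5.5 was 48.8 (19.3 to 158) times below Reactivated there, though the log2 ratio with 10 CPM added was -0.90. Epiblast had at most 1.75 CPM. Trophoblast stood 5.44 (4.25 to 7.04) times above endoderm in EDG9.5 and 1.51 (0.893 to 2.5) times in Reactivated, where the interval holds 1. In cells thinned to 2000 UMIs each, the shares of trophoblast cells with a Wnt6 UMI were 15.8%, 20.7%, 1.84% and 5.71% in stage order (unthinned 35.4% of cells for EDG7.5, 36.3% for EDG9.5, 12.3% for Reactivated and 19.4% for E5.5), beside 0.412%, 0.365%, 0% and 0.0757% in epiblast. From the highest level down, the order ran EDG9.5 and EDG7.5 trophoblast, whose intervals overlap, then E5.5 trophoblast, then endoderm of EDG7.5 and EDG9.5 with Reactivated trophoblast, overlapping in turn.

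The E5.5 trophoblast was uneven for this ligand. Clusters 2 (1230 cells, led by Esrrb and with Cdx2 and Bmp4 among its leading genes) and 3 (951 cells, with Id2 and Fgfr2) had 58.9 (54.3 to 63.8) and 38.4 (34.4 to 42.6) CPM of Wnt6. Cluster 4 (785 cells, with Hand1 and Ascl2) had 0.677 (0.22 to 1.58) CPM, and cluster 9 (437 cells, led by the placental lactogen gene Prl3d1) had 1.06 (0.345 to 2.48) CPM. In Reactivated trophoblast the 27 UMIs gave 22.4 (13.5 to 34.9) CPM in cluster 2 (71 cells, Cdx2 among its leading genes), 8.86 (1.83 to 25.9) CPM in cluster 5 (33 cells) and 1.32 (0.0335 to 7.37) CPM in cluster 0 (51 cells, led by Hand1). A cluster of 8 cells led by Adh1 and Gjb2 had 85.3 (23.3 to 218) CPM. The 10 genes were not kept out of the variable genes the cells were clustered on, so values by cluster are descriptions. With WNT genes left out of the clustering no 2-fold call of a lineage differed.

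Wnt7b, whose protein is a canonical ligand needed in the mouse for placental development, was the steadiest of the ligand genes and close to a trophoblast marker. Trophoblast had 82.1 (72.6 to 92.4) CPM for EDG7.5, 54.5 (47.9 to 61.7) for EDG9.5, 65.3 (54.6 to 77.5) for Reactivated and 71.6 (68.8 to 74.6) for E5.5. These 4 levels lay within a narrow band, and the intervals of EDG7.5, Reactivated and E5.5 overlapped, while EDG9.5, the lowest, overlapped with Reactivated alone. Endoderm had at most 1.5 CPM and epiblast at most 0.7 CPM. In EDG9.5 epiblast no UMI was seen among 585 cells, and trophoblast was then at least 45.8-fold higher, taking 3 UMIs in the whole lineage as the floor for 0. Shares of thinned trophoblast cells with a UMI were 13.3%, 9.87%, 11.7% and 12.9% in stage order (unthinned 33.1%, 20.3%, 49.7% and 41.04%), beside 0.206%, 0%, 0% and 0% in epiblast. The band hid a split at E5.5: clusters 2 and 3 had 104 (97.7 to 110.3) and 116 (109 to 124) CPM and cluster 10 (225 cells, with Gata1 and Ascl2) had 70.04 (58.7 to 82.9) CPM, whereas clusters 4 and 9 had 17.1 (14.2 to 20.3) and 2.55 (1.32 to 4.46) CPM. Both ligand genes were thus high in the same 2 clusters of E5.5 trophoblast, 2 and 3. In Reactivated trophoblast no such split was seen for Wnt7b, with 62.2 CPM in the Hand1 cluster 0 and 72.99 CPM in cluster 2, where Wnt6 had differed.

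Rspo3, the R-spondin that signals through LGR receptors, was seen in endoderm, with under 1 CPM in the other lineages of every library. Endoderm had 131 (119 to 144) CPM for EDG7.5, 125 (114 to 137) for EDG9.5, 3.0 (1.64 to 5.04) for Reactivated and 34.9 (32.7 to 37.2) for E5.5, from 428, 461, 14 and 947 UMIs. The diapause libraries did not differ beyond their intervals, Reactivated was 41.8 (24.6 to 77.01) times lower than EDG9.5, the largest fold decrease of the 30 values in that comparison, and E5.5 was 11.6 (6.9 to 21.4) times Reactivated but still below both diapause libraries. Epiblast had at most 0.733 CPM and trophoblast at most 0.445 CPM. The thinned share of endoderm cells with a UMI was 0.66% (0.08 to 2.36) in Reactivated against 20.5% (17.8 to 23.5) in EDG9.5 and 5.85% (5.03 to 6.75) in E5.5, and in trophoblast, which should lack the gene, it reached 0.118% (0.00298 to 0.653). In endoderm the shares in stage order were unthinned 40.3%, 31.9%, 3.96% and 18.9%. In diapause it was highest in cluster 6 of EDG7.5 (302 cells), at 161 CPM, and cluster 3 of EDG9.5 (390 cells), at 161 CPM, both with Rspo3 and the endoderm factor gene Sox17 among their leading genes. It was lower, at 52.9 (37.4 to 72.6) CPM, in EDG9.5 cluster 4 (99 cells, led by Spink3 and the endocytic receptor gene Cubn). At E5.5 it lay in 2 of 4 endoderm clusters: 71.2 (65.6 to 77.1) CPM in cluster 6 (966 cells, led by Lhx1 and Cer1, genes of the anterior visceral endoderm) and 33.9 (30.4 to 37.7) CPM in cluster 7 (1032 cells, led by Apoc2), against 0.702 (0.191 to 1.8) CPM in cluster 8 (586 cells, with Fabp1) and 0.67 (0.0811 to 2.42) CPM in cluster 5 (410 cells, led by the laminin gene Lama1). In Reactivated both endoderm clusters were low, at 4.84 (2.21 to 9.18) and 1.78 (0.579 to 4.16) CPM.

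Ctnnb1, which encodes β-catenin, the transcriptional partner of the TCF/LEF factors and also a component of cell junctions, was lowest in Reactivated in every lineage. Epiblast had 249 (231 to 268) CPM for EDG7.5, 213 (195 to 231) for EDG9.5, 123 (109 to 137) for Reactivated and 262 (255 to 268) for E5.5. Endoderm had 166 CPM for EDG7.5, 141 for EDG9.5, 96.2 for Reactivated and 290.2 for E5.5, and trophoblast 105 CPM for EDG7.5, 87.4 for EDG9.5, 53.7 for Reactivated and 172 for E5.5. The log2 ratios to EDG9.5 were -0.75 in epiblast, -0.51 in endoderm and -0.61 in trophoblast, none of them 2-fold, and with TMM scaling those in epiblast and endoderm were -0.42 and -0.16. E5.5 was above Reactivated by 2.14 (1.91 to 2.4) times in epiblast, 3.02 (2.74 to 3.32) times in endoderm and 3.2 (2.65 to 3.91) times in trophoblast. The epiblast ratio had a log2 value of 1.04, and 0.99 with TMM scaling, just under 2-fold. Epiblast was above endoderm in the first 3 libraries, by 1.27 (1.1 to 1.47) times in Reactivated, and below it in E5.5, where endoderm stood at 1.11 (1.07 to 1.15) times epiblast. In the order of levels E5.5 endoderm led, E5.5 epiblast followed with an interval that overlaps that of EDG7.5 epiblast but not that of EDG9.5 epiblast, and Reactivated trophoblast was last.

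Of the 4 factor genes, Lef1 was seen above 1 CPM in epiblast alone, at its highest in Reactivated and next in E5.5. LEF1 is a high-mobility-group DNA-binding protein that acts with β-catenin. Epiblast had 4.2 (2.17 to 7.34) CPM for EDG7.5, 8.33 (5.16 to 12.7) for EDG9.5, 256 (237 to 277) for Reactivated and 85.98 (82.2 to 89.8) for E5.5, from 12, 21, 657 and 1993 UMIs. Reactivated was 30.8 (19.97 to 50.1) times EDG9.5 and E5.5 was 2.98 (2.73 to 3.26) times below Reactivated, so that the 4 intervals separated into Reactivated, then E5.5, then the diapause pair. Endoderm never passed 0.59 CPM and trophoblast never passed 0.908 CPM. In Reactivated trophoblast no UMI was seen, and epiblast was at least 170.1-fold higher with the same floor.

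The Lef1 difference lay in most epiblast cells of the Reactivated library. Of them 84.4% (78.7 to 89.1) had a UMI, against 2.74% (1.57 to 4.4) in EDG9.5, and 46.5% (44.6 to 48.5) did in E5.5. After thinning, the shares were 0.823%, 1.46%, 36.1% and 14.8% in stage order, beside at most 0.178% in trophoblast, and the log2 ratio of Reactivated over EDG9.5 was 3.75 with thinned cells. At least 5 UMIs were counted in 54 of 205 Reactivated epiblast cells (26.3%), in 26 of 2641 E5.5 cells and in none of 488 EDG7.5 and 585 EDG9.5 cells. These counts are unthinned and depend on depth. The median UMIs per epiblast cell were 12530 in Reactivated, 8665 in E5.5, 5503 in EDG7.5 and 4071 in EDG9.5. All 657 UMIs of Reactivated epiblast came from cluster 1 (196 cells, 261 (242 to 282) CPM), whose leading genes include Lef1 itself and the formative factor gene Otx2. The other epiblast cluster, of 9 cells led by the naive pluripotency genes Nanog, Klf4 and Tfcp2l1, had no Lef1 UMI, with an upper counting limit of 76.7 CPM. E5.5 epiblast was more even, with 91.3 (86.9 to 95.9) CPM in cluster 1 and 69.98 (63.3 to 77.1) CPM in cluster 0.

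Tcf7, which encodes TCF1, was shared by epiblast and endoderm in diapause and by epiblast and trophoblast in E5.5. Epiblast had 35.00 (28.5 to 42.6) CPM for EDG7.5, 28.6 (22.3 to 35.96) for EDG9.5, 47.2 (39.2 to 56.4) for Reactivated and 70.6 (67.2 to 74.1) for E5.5. Endoderm had 36.2 (29.99 to 43.4) CPM for EDG7.5, 30.5 (25.1 to 36.6) for EDG9.5, 4.5 (2.79 to 6.88) for Reactivated and 19.3 (17.7 to 21.1) for E5.5, and Reactivated was 6.77 (4.22 to 11.4) times below EDG9.5 there. Trophoblast had 3, 3 and 7 UMIs in EDG7.5, EDG9.5 and Reactivated, and 2363 UMIs and 71.2 CPM (68.4 to 74.1) in E5.5, which was 20.3 (9.81 to 50.4) times Reactivated. At equal depth 13.04% (11.96 to 14.2) of E5.5 trophoblast cells had a UMI, against 0.613% (0.0155 to 3.37) in Reactivated (unthinned 0.508%, 0.316%, 4.29% and 43.9% in stage order). All 5 E5.5 trophoblast clusters had it, from 23.3 CPM in cluster 10 to 99.5 CPM in cluster 2 and 95.5 CPM in the Prl3d1 cluster 9. The E5.5 trophoblast and epiblast levels did not differ beyond their intervals, at a ratio of 1.01 (0.947 to 1.08). The E5.5 endoderm level of 19.3 CPM was above Reactivated by a log2 ratio of 1.02, and by 0.92 with thinned cells, so that call is borderline.

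Tcf7l1, whose product TCF3 is a repressor of naive pluripotency genes, was the factor gene with the least change in epiblast. Epiblast had 276 (257 to 296) CPM for EDG7.5, 270.1 (250.2 to 291) for EDG9.5, 320.4 (299 to 343) for Reactivated and 365 (357 to 373) for E5.5, and no neighbouring pair differed 2-fold. Endoderm was flatter still, with 89.97 CPM for EDG7.5, 80.5 for EDG9.5, 69.9 for Reactivated and 82.8 for E5.5; its Reactivated over EDG9.5 log2 ratio was -0.18 and turned to 0.15 with TMM scaling, so no direction is given. Trophoblast had 40.9 (34.3 to 48.4) CPM for EDG7.5, 42.5 (36.7 to 48.9) for EDG9.5, 122 (107 to 138) for Reactivated and 329 (323 to 336) for E5.5. The sum of epiblast markers in trophoblast was also higher in the later libraries, at 696 CPM in Reactivated against 345 CPM in EDG9.5, and at 1095 CPM in E5.5 against 696 CPM in Reactivated, and its part in the Tcf7l1 and Tcf7 values of trophoblast was not tested. Reactivated was 2.86 (2.36 to 3.48) times EDG9.5 and E5.5 2.71 (2.39 to 3.09) times Reactivated, and E5.5 trophoblast reached the range of epiblast. At equal depth 7.83%, 6.58%, 19.6% and 43.3% of trophoblast cells had a UMI in stage order (unthinned 17.3%, 14.6%, 61.96% and 86.4%), beside 17.2%, 13.2%, 13.5% and 15.5% of endoderm cells. Within E5.5 trophoblast the pattern ran opposite to that of the ligand genes: 485 (469 to 501) and 505 (485 to 525) CPM in clusters 4 and 9, against 199 (191 to 208) and 259 (248 to 269) CPM in clusters 2 and 3. The Reactivated library showed the same side, with 160.1 (133 to 191) CPM in its Hand1 cluster 0 against 94.2 (74.7 to 117) CPM in cluster 2.

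Tcf7l2, whose product TCF4 is the main intestinal factor of the family, was highest in endoderm at every stage. Endoderm had 70.9 (62.1 to 80.7) CPM for EDG7.5, 116 (105 to 127) for EDG9.5, 75.9 (68.2 to 84.2) for Reactivated and 179 (174 to 184) for E5.5; E5.5 was 2.35 (2.11 to 2.63) times Reactivated. EDG9.5 was 1.63 (1.39 to 1.93) times EDG7.5 by plain CPM. With 10 CPM added, its log2 ratio of 0.64 was the highest of the 30 between the diapause libraries, and short of 2-fold. Epiblast had 53.2 (45.1 to 62.4) CPM for EDG7.5, 74.2 (63.9 to 85.6) for EDG9.5, 25.4 (19.6 to 32.3) for Reactivated and 44.3 (41.6 to 47.1) for E5.5, lowest in Reactivated at 2.92 (2.19 to 3.94) times below EDG9.5. That log2 ratio was -1.25, and -0.95 with TMM scaling, where the 2-fold call was lost. Trophoblast had 34.5 CPM for EDG7.5, 28.5 for EDG9.5, 47.7 for Reactivated and 28.2 for E5.5. Single clusters carried much of it. In EDG9.5 the Spink3 and Cubn cluster 4 had 207 (175 to 243) CPM, against 80.4 (68.3 to 94.1) CPM in cluster 3, the reverse of Rspo3 in the same clusters. At E5.5 the Lama1 cluster 5 and the Lhx1 cluster 6 had 320.4 (300.4 to 341) and 278 (267 to 289) CPM, against 84.2 (78.6 to 90.1) and 122 (113 to 131) CPM in clusters 7 and 8. In Reactivated trophoblast, cluster 5 (33 cells, with the cathepsin-like gene Ctsll3) had 177 (135 to 228) CPM and cluster 2 had 8.24 (3.31 to 16.98) CPM.

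**Figure D2:**
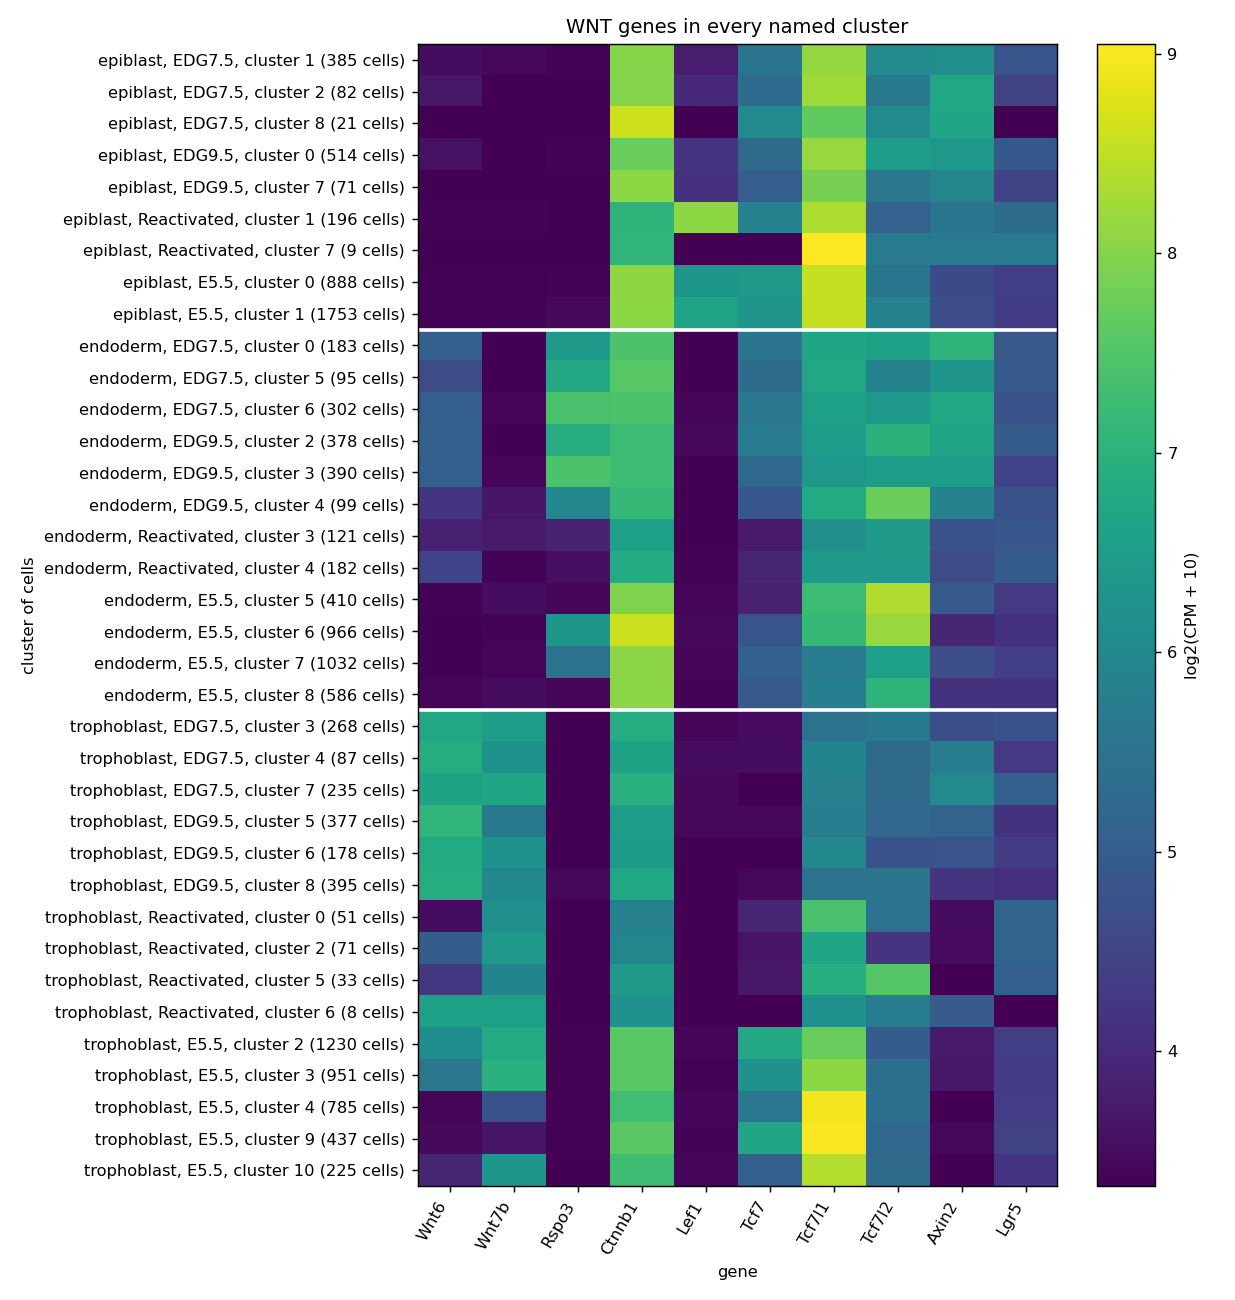
Level of each of the 10 genes (columns) in every named cluster (rows, with lineage, library and number of cells), coloured by log2(CPM + 10). In E5.5 trophoblast, clusters 2 and 3 are brighter than clusters 4 and 9 for Wnt6 and Wnt7b, and darker for Tcf7l1.

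Axin2, a negative regulator of the pathway that is itself a widely used WNT target, was high in the diapause libraries and lower in Reactivated and E5.5 in all 3 lineages. Endoderm had 95.8 (85.5 to 107) CPM for EDG7.5, 77.8 (69.01 to 87.3) for EDG9.5, 15.9 (12.5 to 19.9) for Reactivated and 11.3 (10.1 to 12.7) for E5.5. Epiblast had 71.1 (61.6 to 81.5) CPM for EDG7.5, 69.4 (59.5 to 80.5) for EDG9.5, 36.7 (29.6 to 44.9) for Reactivated and 15.4 (13.8 to 17.04) for E5.5. Trophoblast had 33.01 (27.1 to 39.8) CPM for EDG7.5, 15.1 (11.7 to 19.2) for EDG9.5, 1.51 (0.311 to 4.4) for Reactivated and 1.96 (1.51 to 2.5) for E5.5, with 3 UMIs in Reactivated. Both diapause libraries were above both later ones in each lineage. Reactivated was below EDG9.5 by 4.9 (3.78 to 6.42) times in endoderm, 10.03 (3.29 to 49.9) times in trophoblast and 1.89 (1.46 to 2.46) times in epiblast, where the log2 ratio of -0.77 was not a 2-fold call. The epiblast level of E5.5 was 2.39 (1.88 to 3.01) times below that of Reactivated, with a log2 ratio of -0.88. Axin2 thus had its lower levels in the same epiblast libraries in which Lef1 had its higher ones. Within diapause, trophoblast was 2.18 (1.6 to 3.0) times lower in EDG9.5 than in EDG7.5, the lowest log2 ratio (-0.78) of that comparison. Thinned shares of cells with an Axin2 UMI were 16.3%, 13.9%, 3.63% and 2.54% in endoderm and 6.76%, 4.58%, 0% and 0.469% in trophoblast, in stage order (unthinned 36.7%, 25.8%, 21.1% and 9.19% in endoderm, and unthinned 14.2%, 6.42%, 1.84% and 1.74% in trophoblast), where the 0 of Reactivated allows up to 2.24%. The sum of endoderm markers in trophoblast was also lower in the later libraries, at 48.7 CPM in Reactivated against 368 CPM in EDG9.5, and its part in the trophoblast values was not tested. In EDG7.5 trophoblast clusters 4 and 7, both led by H19 and Igf2 and the larger one also by the immune genes Cd74 and H2-Ab1, had 43.03 (29.4 to 60.7) and 55.2 (41.1 to 72.6) CPM, against 15.9 (10.4 to 23.3) CPM in cluster 3 (268 cells, with Gjb2); in EDG9.5 the values were 25.3 (16.5 to 37.03) CPM in cluster 5 (H19, Igf2) and 8.48 (5.03 to 13.4) CPM in cluster 8 (Gjb2, Adh1).

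Lgr5, the R-spondin receptor and stem cell marker of the adult intestine, was low in all lineages, between 8.23 and 30.8 CPM. Epiblast had 16.1 (11.8 to 21.5) CPM for EDG7.5, 18.6 (13.7 to 24.8) for EDG9.5, 30.8 (24.4 to 38.4) for Reactivated and 10.4 (9.17 to 11.8) for E5.5, endoderm 18.4 CPM for EDG7.5, 15.8 for EDG9.5, 21.2 for Reactivated and 9.18 for E5.5 and trophoblast 17.3 CPM for EDG7.5, 8.23 for EDG9.5, 25.1 for Reactivated and 10.5 for E5.5. No 2-fold call was made. The nearest were E5.5 over Reactivated in epiblast, at a log2 ratio of -0.998 and 2.95 (2.26 to 3.82) times lower, and Reactivated over EDG9.5 in trophoblast, at 0.95 and 3.05 (1.96 to 4.8) times. The trophoblast ratio passed 2-fold with a 10% mitochondrial limit (1.03), with TMM scaling (1.002), with totals without ribosomal protein and mitochondrial genes (1.005) and with 1 CPM added (1.501), and was 0.11 with thinned cells. At E5.5 the lineages did not differ beyond their intervals, the trophoblast being 1.01 (0.853 to 1.19) times epiblast, and the 11 clusters of that library lay between 7.89 and 11.5 CPM. Thinning left an Lgr5 UMI in 10, 9 and 4 Reactivated cells of epiblast, endoderm and trophoblast, too few to show whether the Reactivated levels are higher at equal depth. With no lineage lacking the gene, expression could not be told from background RNA here.

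**Figure D3:**
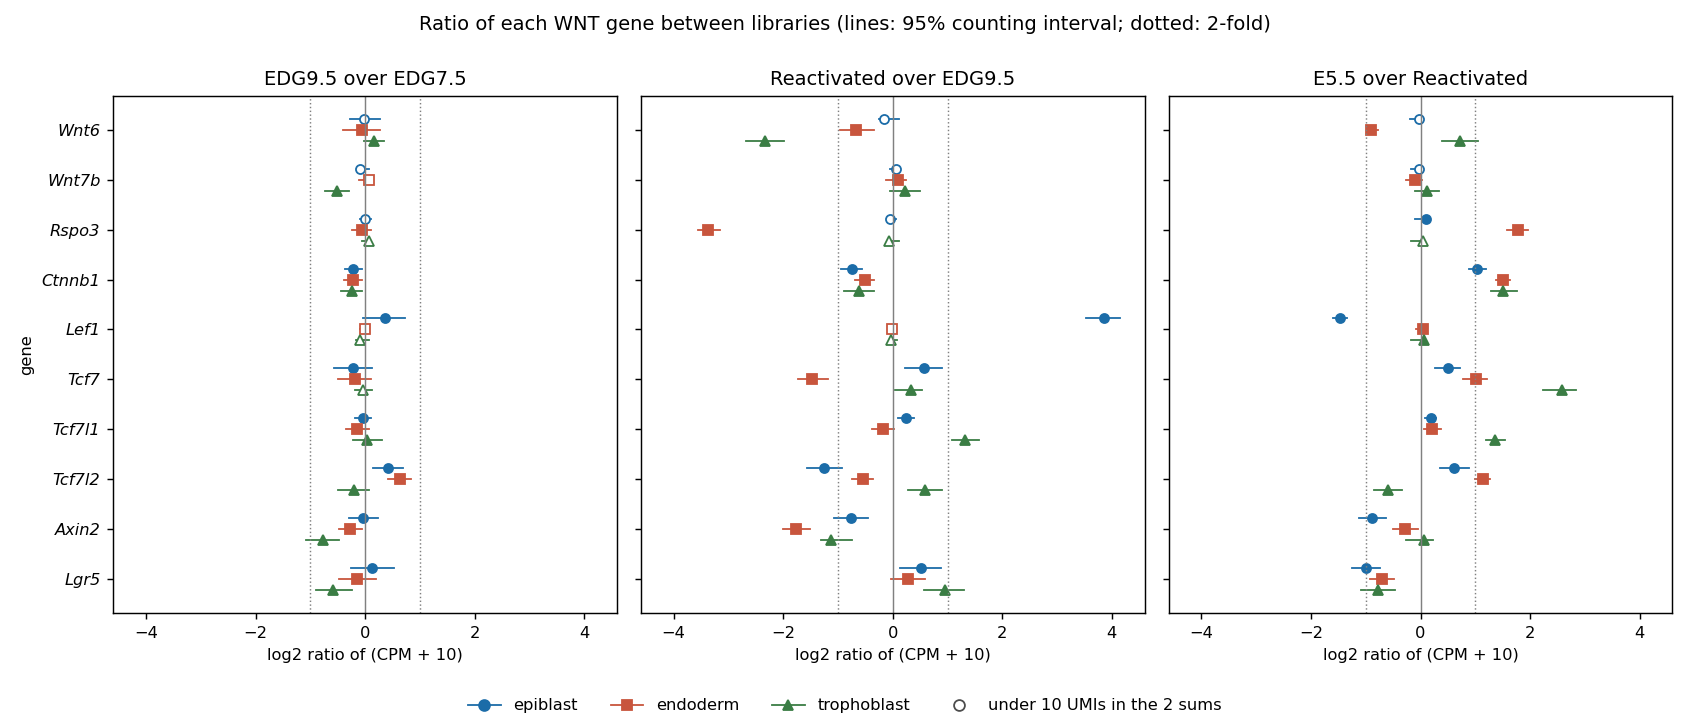
Log2 ratio of (CPM + 10) for each gene (rows) in epiblast, endoderm and trophoblast, in the 3 comparisons; lines are 95% counting intervals, open symbols have under 10 UMIs and dotted lines mark 2-fold. No point of EDG9.5 over EDG7.5 passes 2-fold, and Lef1 in epiblast and Rspo3 in endoderm are the farthest points of Reactivated over EDG9.5.

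Scaling bore on 2 of the lineages. With TMM factors the median log2 ratio of all genes in Reactivated over EDG9.5 was -0.036 in place of -0.23 in epiblast and 0.020 in place of -0.16 in endoderm, and moved elsewhere by at most 0.031. Under TMM the calls there read 4.01 for Lef1 in epiblast, and -3.15 for Rspo3, -1.27 for Tcf7 and -1.47 for Axin2 in endoderm, against 3.86, -3.38, -1.48 and -1.76.

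The other genes of the pathway were taken from lists of ligands, receptors, antagonists, transducers, nuclear partners and targets, 88 genes of which 86 are in the files. In EDG9.5 over EDG7.5 none of those with at least 10 UMIs was 2-fold different in any lineage (0 of 51 in epiblast, 0 of 47 in endoderm and 0 of 38 in trophoblast), beside 0.0323%, 0.16% and 0.129% higher and 0.0161%, 0.0399% and 0.129% lower of all genes. In Reactivated over EDG9.5, epiblast had 7 higher and 15 lower of 50, endoderm 3 and 8 of 44, and trophoblast 4 and 8 of 36, beside 7.29%, 5.64% and 9.85% higher and 16.4%, 10.6% and 11.4% lower of all genes. Their median log2 ratios were -0.51, -0.35 and -0.32 in epiblast, endoderm and trophoblast, beside -0.23, -0.16 and -0.079 over all genes. In E5.5 over Reactivated the counts were 4 higher and 3 lower of 64, 8 and 1 of 63, and 2 and 1 of 56, in the same order, beside 3.1%, 3.11% and 4.89% higher and 4.47%, 2.38% and 3.01% lower of all genes. Their median log2 ratios were 0.069, 0.25 and 0.11, beside 0.068, 0.037 and 0.089.

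Of the other ligand genes, 1 higher and 1 lower of 3 with at least 10 UMIs were called in Reactivated over EDG9.5 endoderm, and 1 higher and 1 lower of 4 in trophoblast. Over all genes, 5.64% were higher and 10.6% lower in that endoderm comparison, and 9.85% and 11.4% in trophoblast. Wnt2, a canonical ligand, had no UMI in epiblast or trophoblast of any library; endoderm had 44.8 CPM for EDG7.5, 44.6 for EDG9.5, 2.14 for Reactivated and 0 for E5.5, and was 20.8 (11.03 to 44.2) times lower in Reactivated than in EDG9.5. Wnt3a, the ligand most used to activate the pathway in culture, lay in trophoblast, with 54.8 CPM for EDG7.5, 38.5 for EDG9.5, 4.02 for Reactivated and 0.0904 for E5.5, 9.57 (4.75 to 22.5) times lower in Reactivated. Wnt11, mostly a noncanonical ligand, went the other way, with 17.5 CPM for EDG7.5, 15.5 for EDG9.5, 66.02 for Reactivated and 44.1 for E5.5 in endoderm, and was 4.26 (3.2 to 5.76) times higher in Reactivated. Wls and Porcn, which export and lipid-modify WNT proteins, were lower in Reactivated epiblast, at 6.24 against 85.7 CPM and 21.5 against 64.7 CPM. Among the receptors of epiblast, Fzd5 and Lrp6 were lower too, at 40.2 against 182 CPM and 30.4 against 88.5 CPM, whereas Fzd2 had 2.45 CPM for EDG7.5, 3.57 for EDG9.5, 18.3 for Reactivated and 67.6 for E5.5. Of the receptor list as a whole, epiblast had 1 higher and 4 lower of 14 in Reactivated over EDG9.5. Over all genes these shares were 7.29% and 16.4%. Wnt9a reached 16.05 CPM in trophoblast, and Rspo1, Rspo2 and Rspo4 reached at most 9.27 CPM in any sum.

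Secreted antagonists counted 1 higher and 2 lower of 5 in epiblast in Reactivated over EDG9.5, and 4 higher and 1 lower of 7 in endoderm in E5.5 over Reactivated. Over all genes, 7.29% were higher and 16.4% lower in that epiblast comparison, and 3.11% and 2.38% in that endoderm comparison. Sfrp1, a decoy receptor, had 698 CPM for EDG7.5, 685 for EDG9.5, 69.5 for Reactivated and 61.6 for E5.5 in epiblast, 9.86 (8.45 to 11.6) times lower in Reactivated than in EDG9.5. Notum, an enzyme that strips the lipid from WNT proteins and is often a WNT target, had 26.6 CPM for EDG7.5, 26.97 for EDG9.5, 111 for Reactivated and 0.216 for E5.5 there, 2-fold higher in Reactivated and 514 (218 to 1595) times lower in E5.5. In endoderm Dkk1, which blocks LRP co-receptors, had 177 CPM for EDG7.5, 162 for EDG9.5, 378 for Reactivated and 112 for E5.5, 2-fold higher in Reactivated and 2-fold lower in E5.5. Cer1, Sfrp5 and Frzb had 82.5, 95.8 and 50.8 CPM in E5.5 endoderm, against 0.857, 1.29 and 1.71 CPM in Reactivated. Cer1 and Sfrp5 lay in the E5.5 cluster that was highest for Rspo3, cluster 6, at 262 and 258 CPM, and Frzb in cluster 5, the one highest for Tcf7l2, at 347 CPM.

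Transducers counted 0 higher and 4 lower of 10 in epiblast in Reactivated over EDG9.5, 0 higher and 3 lower of 10 in endoderm and 0 higher and 2 lower of 9 in trophoblast. Over all genes, 7.29%, 5.64% and 9.85% were higher and 16.4%, 10.6% and 11.4% lower in these lineages. Apc and Gsk3b of the destruction complex were lower in Reactivated epiblast, at 24.2 against 195 CPM and 85.9 against 247 CPM, and Csnk1a1 had 324 against 672 CPM. Of the Groucho-type co-repressors that bind TCF/LEF factors, Tle4 was higher in Reactivated epiblast, at 457 against 97.97 CPM, and Tle3 lower, at 60.1 against 208 CPM. Ctnnbip1, whose product binds β-catenin and blocks its contact with TCF, had 35.3 CPM for EDG7.5, 37.5 for EDG9.5, 106 for Reactivated and 137 for E5.5 in endoderm and 13.3 CPM for EDG7.5, 12.5 for EDG9.5, 79.4 for Reactivated and 77.9 for E5.5 in trophoblast. Targets counted 4 higher and 2 lower of 8 in epiblast in Reactivated over EDG9.5, 0 higher and 2 lower of 7 in endoderm and 2 higher and 1 lower of 6 in trophoblast. The shares of all genes beside them are those given for the transducers. Sp5, a direct WNT target in pluripotent cells, had 59.5 CPM for EDG7.5, 58.3 for EDG9.5, 1.95 for Reactivated and 0.129 for E5.5 in epiblast, on the side of Axin2. The cyclin gene Ccnd1 had 44.5 CPM for EDG7.5, 26.6 for EDG9.5, 332 for Reactivated and 255 for E5.5 there, on the side of Lef1. Myc was 2.25 (1.84 to 2.76) times EDG9.5 in Reactivated epiblast and 26.8 (17.3 to 43.8) times lower in endoderm, and the trophoblast factor gene Cdx2 was 5.35 (4.47 to 6.45) times lower in trophoblast. Ascl2, a gene of the ectoplacental lineage and also an intestinal WNT target, had 88.9 CPM in Reactivated trophoblast against 1 UMI in EDG9.5. Cdx2 and Ascl2 were also on the marker list that named trophoblast clusters, so their levels there are not independent of the naming.

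**Figure D4:**
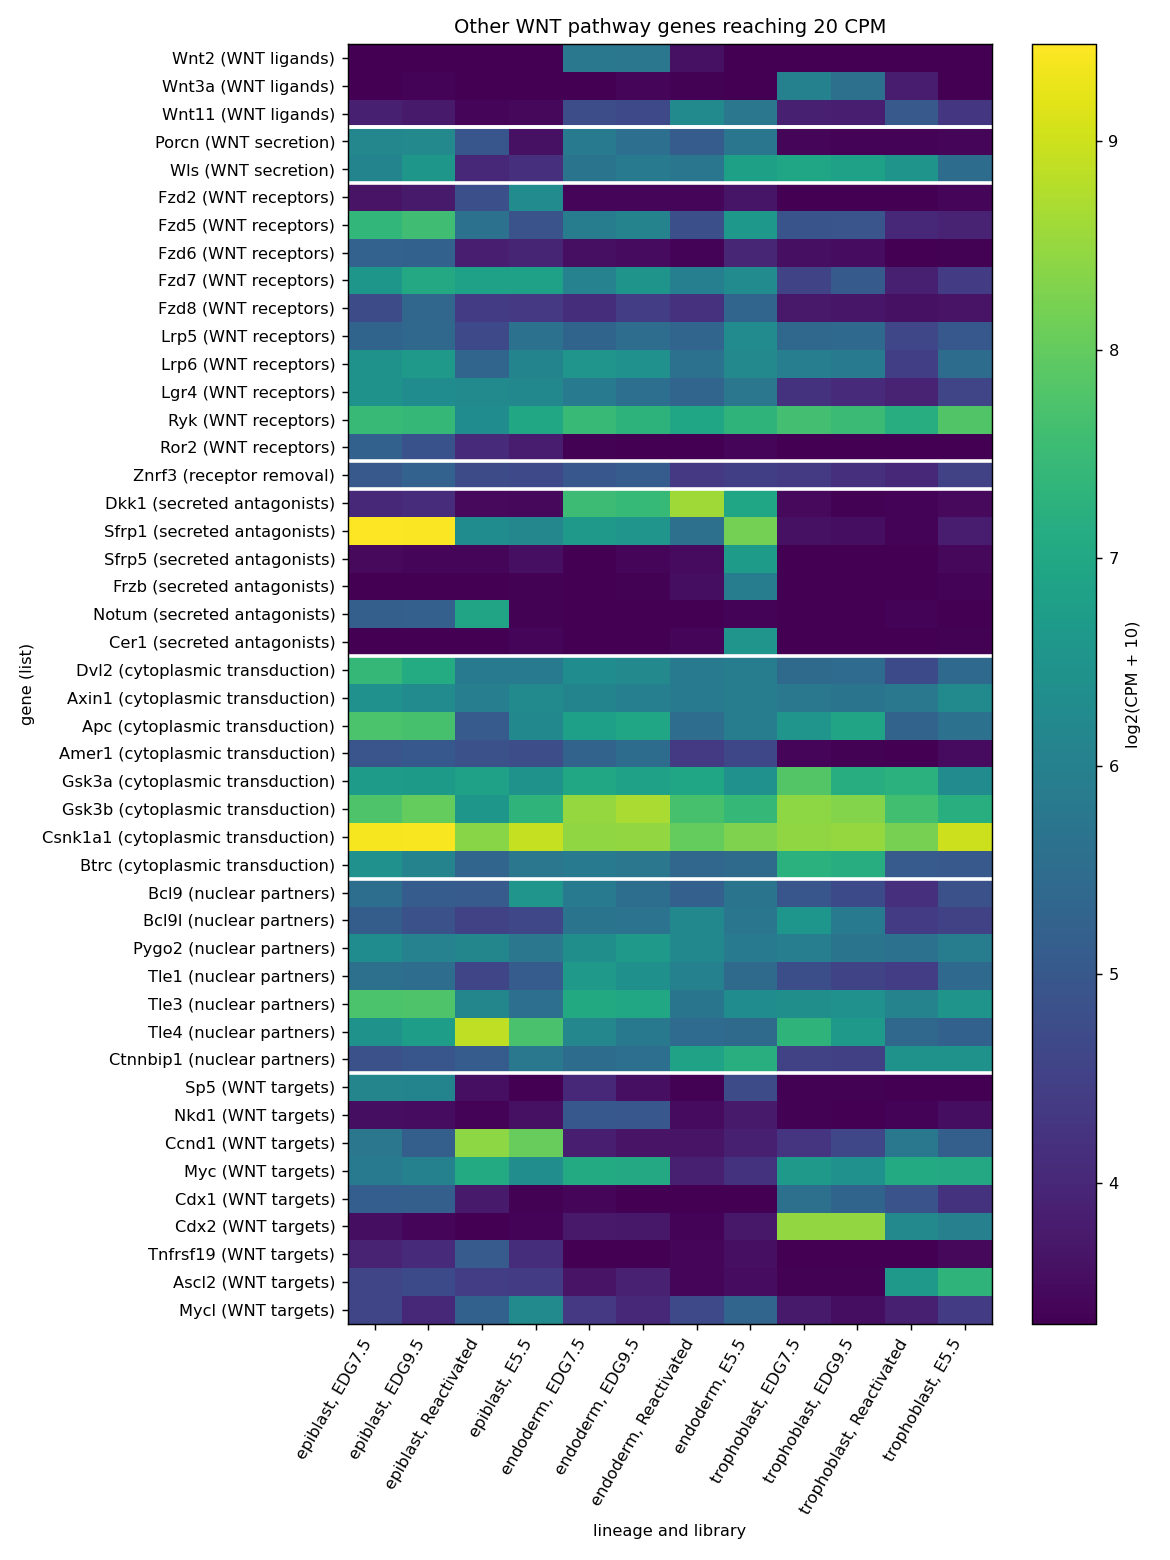
Level of the 46 of 86 other pathway genes that reached 20 CPM in any lineage (rows, grouped by list) in each lineage and library (columns), coloured by log2(CPM + 10). Sfrp1 is bright in diapause epiblast. Wnt2 is brighter in diapause endoderm than in endoderm of the later libraries, and Wnt3a is brighter in diapause trophoblast than in later trophoblast.

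Genes with the most similar profile over the 12 sums of lineage and library were ranked by Pearson's r of log2(CPM + 10), among genes reaching 100 CPM, as a description of points that share libraries. For Lef1 these were Rarg (r = 0.98), Pla2g1b (0.97) and Pdzd4 (0.97), and for Rspo3 Ghr (0.99), Sox17 (0.92) and Lhfpl2 (0.92). Wnt7b was nearest to Entpd1 (0.98), Mbnl3 (0.97) and the keratin gene Krt7 (0.97), and Wnt6 to Plec (0.97), Rhob (0.96) and Egln1 (0.94). Axin2 was nearest to Slc45a4 (0.97), Tbl1xr1 (0.96) and Pcmt1 (0.94), and Ctnnb1 to Ireb2 (0.93), Zc3h14 (0.91) and Larp4 (0.91). For Tcf7 they were Drosha (0.98), Ubap2 (0.97) and Chd4 (0.97), for Tcf7l1 Tcof1 (0.97), Ckap2 (0.96) and Utp6 (0.95), and for Tcf7l2 Rnase4 (0.89), Mboat7 (0.87) and Rdh10 (0.87).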

How the data were processed

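Whole embryos were profiled by single-cell RNA sequencing (BD Rhapsody whole transcriptome, NextSeq 500), 1 library per stage. The authors deposited UMI counts per gene and cell. Per the submitters' processing notes, UMI-tools 1.0.1, STAR 2.7.1a, Subread, featureCounts 1.6.4 and the build mm10 were used; not given in the sources used here are the annotation, the strand setting and how barcodes were kept.

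From these counts, cells needed 1000 UMIs, 500 genes and less than 25% of UMIs from mitochondrial genes; 1670 cells of EDG7.5, 2458 of EDG9.5, 673 of Reactivated and 9541 of E5.5 passed, and after Scrublet removed 12, 7, 2 and 278 doublets, 1658, 2451, 671 and 9263 remained. Each library was clustered alone with scanpy 1.11.5 (2000 variable genes, 30 principal components, 15 neighbours, Leiden resolution 1). A cluster took the lineage of the marker list that led by a log2 score of 0.5; 49 cells of EDG9.5 stayed unnamed. Lineages are thus rebuilt here and may differ from the authors' own. UMIs were summed per lineage and library and divided by the total of the sum. Intervals were computed with scipy 1.17.1 and TMM factors with edgeR 4.0.16, and the ratio step was tested on simulated data.

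The 10 genes, the pathway lists and the marker lists were chosen with earlier results of these data known, and a few lineage or immune genes were kept out of the marker lists for that reason. The genes named beside the 10 are, per list, the 4 with the highest CPM, genes with at least 50 UMIs, 50 CPM and a 2-fold ratio (a selection of these is printed), and for each of the 10 that reached 50 CPM the 3 most similar profiles among genes reaching 100 CPM. Of 25437 gene names, 21344 matched a RefSeq symbol. Alternatives changed the cell filters, doublet removal, clustering, scaling, thinning and added CPM; leaving out shared barcodes and leaving out the smallest Reactivated clusters were chosen after seeing the data.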

Additional observations from a re-analysis of the deposited data

How the results depend on the processing

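No paired analysis was possible because each stage has 1 library. The 17 ratios called 2-fold kept their direction under all 14 alternatives, and 225 of the 238 recomputed ratios stayed 2-fold; 8 of the 17 did so in every alternative. Adding 50 CPM in place of 10 kept 8 of the 17: it left 1 of 2 higher and 2 of 6 lower in Reactivated over EDG9.5, and 4 of 8 higher in E5.5 over Reactivated. Adding 1 CPM gave 4 higher in Reactivated over EDG9.5, 6 lower in place of 1 in E5.5 over Reactivated, and 1 lower in place of 0 in EDG9.5 over EDG7.5 (Axin2 in trophoblast). The count of lower genes in E5.5 over Reactivated was also 2 with a 10% mitochondrial limit, with TMM scaling, with means over cells and without barcodes found in another library, and 3 with totals that leave out ribosomal protein and mitochondrial genes; Lgr5 in epiblast, at -0.998, was among those added each time. The count of higher values in Reactivated over EDG9.5 was 3 in place of 2 with the 10% mitochondrial limit, TMM scaling and those totals, each time by Lgr5 in trophoblast. Beyond added CPM, calls were lost for Tcf7l2 and Ctnnb1 in epiblast with TMM scaling and for Tcf7 in E5.5 endoderm with thinned cells or means over cells. Thinned cells also made Wnt6 2-fold, lower in Reactivated endoderm at -1.12 and higher in E5.5 trophoblast at 1.09, against -0.66 and 0.73 unthinned. Thinning left a Wnt6 UMI in 3 Reactivated endoderm and 3 Reactivated trophoblast cells, too few to set these ratios apart from counting error. Counting only values with at least 10 UMIs, and leaving the WNT genes out of the clustering, changed no count. Depth limits the low sums: Reactivated trophoblast had 163 cells, where 3 UMIs of Axin2 and 7 of Tcf7 set the ratios.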

Other observations

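The 49 EDG9.5 cells that no marker list named, at a median of 1871 UMIs per cell, had 39.9 CPM of Axin2, 169 of Ctnnb1, 89.7 of Rspo3, 239 of Tcf7l1 and 39.9 of Tcf7l2. No UMI of Lef1, Wnt6 or Wnt7b was seen in them. So few cells of low depth give these values a wide counting error. For Lef1, at 8.33 CPM even in EDG9.5 epiblast, they cannot show absence. In the same library Rspo3 had 125 CPM in endoderm and Tcf7l1 had 270.1 CPM in epiblast.

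In E5.5 endoderm, the antagonist gene Sfrp1 and the receptor gene Fzd5 had 817 and 241 CPM in cluster 6, the Lhx1 and Cer1 cluster, and Wnt11 had 204 CPM in the Lama1 cluster 5. Over all E5.5 endoderm these genes had 279, 86.9 and 44.1 CPM.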
